A study of Hormonema carpetanum with 4 samples.

Results

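The genes described here encode the enzymes that load amino acids onto transfer RNA (tRNA ligases, also called aminoacyl-tRNA synthetases) and the protein factors that start, extend and end translation, in the filamentous fungus Hormonema carpetanum. They were chosen by name, with earlier results of these data known. A gene entered when its best Swiss-Prot hit was named as a tRNA ligase, a translation initiation factor or a peptide chain release factor. Hits named as an elongation factor of types 1, 2, 3, G or Tu entered as well. Names that held kinase or transcription were left out. The rule found 76 of the 10951 genes in the deposited table, namely 33 tRNA ligases, 32 initiation factors, 7 elongation factors and 4 release factors. Of these, 14 carry the word mitochondrial in the name of their hit, 10 of them ligases.

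RNA came from mycelium in fermentation broth. The wild-type strain ATCC74360 and the mutant ENF-5-29 were each sampled at day 14. The mutant was sampled again at day 18 from cultures at 19 °C and at 25 °C, so that there were 4 groups of 1 library each. The mutant is a single strain obtained by mutagenesis in a programme to raise production of enfumafungin, an antifungal triterpene glycoside. Its mutations were not analysed here. No temperature is given for the day 14 cultures, and the extraction protocol names 18 days for both strains where the sample titles give day 14. With 1 library per group there is no replicate spread, so no p-value is given and every difference below is one between individual libraries.

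In translation, each tRNA ligase attaches one kind of amino acid to its tRNAs, which elongation factor 1-alpha then carries to the ribosome. Initiation factors assemble the small ribosomal subunit, the initiator tRNA and the messenger RNA at the start codon; elongation factor 2 moves the ribosome along, and in fungi elongation factor 3, an ATPase that animals lack, is needed in each cycle as well. Release factors free the finished chain at stop codons. Mitochondria run a separate, bacterial-type set of ligases and factors, and in fungi several ligases serve both compartments from 1 gene.

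Values are TPM, a transcript's share of its library per unit length scaled to a total of 1000000. Differences are given as plain folds of TPM and as log2 ratios of TPM plus a pseudocount of 1, which understates the difference of low genes. A gene counted as tested once it reached 1 TPM in either library, and as higher or lower once the ratio reached 2-fold. All 76 members were tested in all 4 comparisons, 59 of them stood at 10 TPM or more in every library, and 2 were listed at 0 in 1 library each. No member shared its values with another gene in every library, which near-identical copies can do. Since TPM discards the number of reads, how precisely a value was measured is unknown. A lower value in mycelium can mean fewer cells of a kind or less RNA per cell, and these cannot be told apart. Of 11 conidiation and spore genes, a check for other cell forms, the summed level was 154.6 TPM for the wild type, with 848.1 to 1024 TPM across the mutant libraries. Most of the difference lay in con-10 (gene06873, 9.91, 688, 924 and 635 TPM in the order wild type, mutant at day 14, 19 °C and 25 °C) and DIT1 (gene05643, 0.350, 155, 37.9 and 80.8 TPM). Of the 9 such genes tested at day 14, 5 were higher in the mutant and 2 lower, against 40.7% and 14% of all tested genes. Rescaled by the median ratio as described below, 3 of 8 were higher and 2 lower, against 24.7% and 26%. As deposited, the 2 lower ones, both highest in the wild type, were velvet B (gene04480, 24.1 TPM there and 10.1 TPM in the mutant at day 14) and pit1 (gene10877, 90.6 and 31.1 TPM). The developmental regulator abaA (gene06725) stood at 1.05, 3.75, 4.55 and 1.89 TPM in the same order, and wetA was at or below 0.11 TPM in every library. The part of such cells in the results was not tested. For mycelium, a list of 14 chitin synthase and related genes was set beside these. Of them, 8 were higher and 1 lower in the mutant at day 14, or 3 and 1 once rescaled. At 19 °C, 10 of 13 tested were lower than at 25 °C and 0 higher, against 21.4% and 10.9% of all tested genes. Once rescaled, 8 were lower and 0 higher, against 17.5% and 14.5%.

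At day 14 most of the machinery was higher in the mutant library than in the wild type. In this comparison 50 of 76 members were at least 2-fold higher and 2 at least 2-fold lower, whereas among all 9272 tested genes 40.7% were higher and 14% lower. The members' median log2 ratio was 1.53, against 0.64 for all tested genes. Initiation factors stood furthest up, 28 of 32 being higher and 0 lower at a median of 2.03. Ligases without a mitochondrial name came next, 15 of 23 being higher and 0 lower at a median of 1.58. Ligases with a mitochondrial name did not share this, 3 of 10 being higher and 1 lower at a median of 0.41, under that of all genes.

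TPM are shares, and rescaling each library by the median ratio over 7805 genes moved the median of all tested genes by -0.72 in this comparison. After it, 35 members were higher and 7 lower, so that higher genes made up 83.3% of the members' calls instead of 96.2%, while 24.7% of all tested genes were higher and 26% lower. Initiation factors then had 23 higher and 1 lower, ligases without a mitochondrial name 10 higher and 1 lower, and elongation factors 0 higher and 2 lower.

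**Figure D1:**
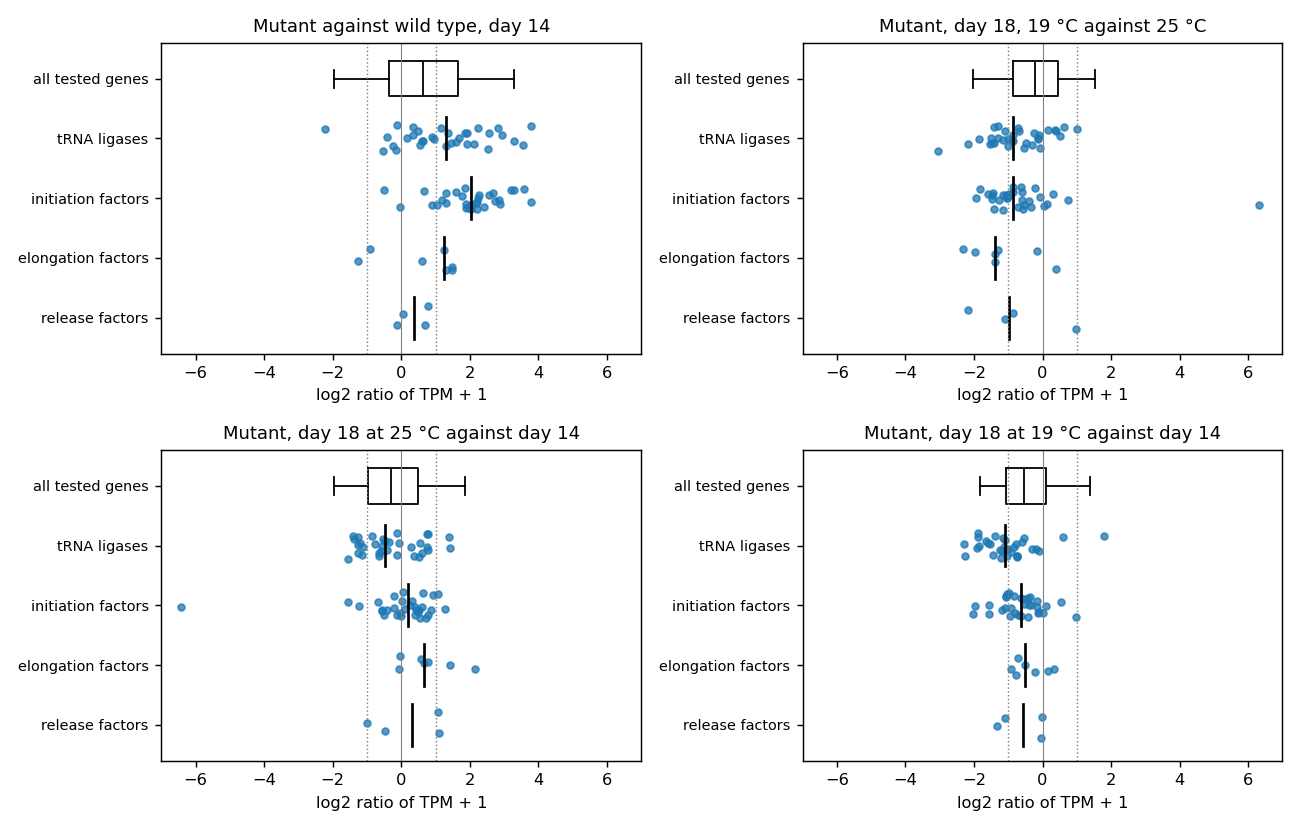
Log2 ratios of TPM plus 1 in the 4 comparisons. The box shows the middle of all tested genes between their quartiles with its median, and whiskers at the 5 and 95 percentiles. Each point is 1 member and each black bar the median of its class; dotted lines mark a 2-fold ratio. Initiation factors lie to the right in the strain comparison, with a median of 2.03, and most members lie to the left in the temperature comparison.

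Between 19 °C and 25 °C at day 18 the difference ran the other way. At 19 °C, 35 of 76 members were at least 2-fold lower and 2 higher, against 21.4% of 9064 tested genes lower and 10.9% higher. The members' median log2 ratio was -0.87, against -0.21 for all tested genes. Lower at 19 °C were 12 of 23 ligases without a mitochondrial name, 14 of 32 initiation factors, 5 of 7 elongation factors and 2 of 4 release factors, but 2 of 10 ligases with a mitochondrial name. Rescaling by the median ratio moved the median of all genes by 0.18 and left 24 members lower and 3 higher. Of 9061 genes tested after it, 17.5% were lower and 14.5% higher. By role, 8 ligases without and 2 with a mitochondrial name, 8 initiation factors, 5 elongation factors and 1 release factor were then lower; among ligases, the calls lost were those for leucine, threonine, glutamate and the phenylalanine beta chain. As deposited, the 2 higher members were the mitochondrial phenylalanine ligase and an eIF3 subunit B model listed at 0 at 25 °C, both described below.

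The strain and temperature comparisons share no library. Of the 50 members that were higher in the mutant at day 14, 27 were also lower at 19 °C than at 25 °C. A further 22 were within 2-fold and 1 was higher. Both together were thus met by 27 of all 76 members, beside 10.4% of the 8828 genes tested in both. Taken separately, 50 and 35 of the 76 members met these, and an overlap beyond that was not tested. Rescaled by the median ratio, 14 of the 76 members met both (18.4%), beside 5.36% of 8788 genes. The lowest of the 3 mutant libraries was above the wild-type value for 54 of 76 members, as it was for 43% of 9508 genes at 1 TPM in any library, and the highest was below it for 7, against 24.2% of genes. The count of 54 can also be put as a share. With ties included, the wild-type library held the lowest value of 71.1% of the members and 44.6% of those genes. The mutant at day 14 and the mutant at 25 °C each held the highest value of 43.4% of the members, and the mutant at 19 °C that of 3.95%. Over all those genes the shares of these 3 libraries were 38.1%, 26.1% and 11.5%.

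**Figure D2:**
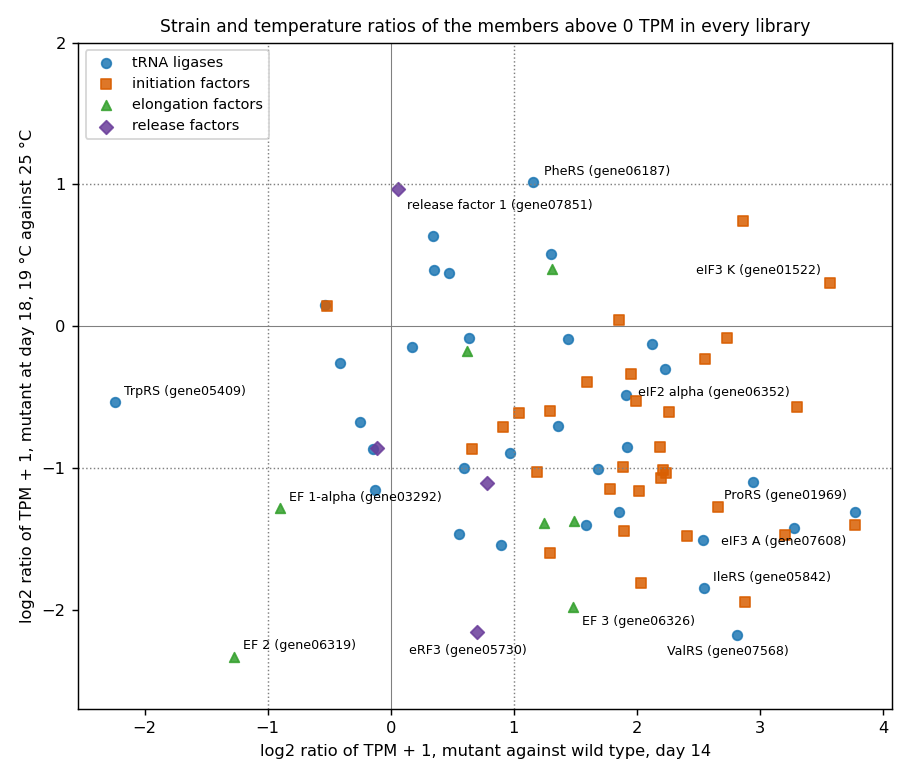
Log2 ratios of TPM plus 1 for the strain comparison (horizontal) and the temperature comparison (vertical), for the members above 0 TPM in every library. Dotted lines mark 2-fold ratios. The lower right corner, higher in the mutant and lower at 19 °C, holds ProRS gene01969 and eIF3 subunit A gene07608, while the mitochondrial TrpRS gene05409 lies alone at the far left.

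Values of genes for very long and very short proteins are given beside these. For 11 tested genes whose products are, by name, of great length, the median log2 ratio was 0.84 between the strains and -0.99 between 19 °C and 25 °C. For 38 genes of proteins taken by name as short, these medians were -0.04 and 0.40, and for all tested genes 0.64 and -0.21. The short list holds respiratory chain and ATP synthase subunits, mitochondrial import proteins, ubiquitin-conjugating enzymes, small nuclear ribonucleoproteins, cofilin and profilin. Both lists rest on names and not on measured lengths, and length was not separated from function. Many ligases and the large eIF3 subunits are long proteins. Gene lengths were not used here, and the part of length in the members' values was not tested.

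Ligases fall into 2 unrelated classes with different catalytic folds, and by their listed Pfam domains 14 of the 33 were class I, 18 class II and 1 had no domain listed. All 20 amino acids had at least 1 ligase gene, and 17 had one without a mitochondrial name; glycine, histidine and valine each had a single gene under the rule, whose hit is named mitochondrial. In budding yeast the glycine and histidine genes of that kind serve both compartments, as does the valine gene in Neurospora crassa. The summed level of the 23 ligases without a mitochondrial name was 726.5 TPM in the wild type, 1689 TPM in the mutant at day 14, 1016 TPM at 19 °C, and at 25 °C it was 1538 TPM. The 10 with such a name summed to 462.9, 419.6, 246.4 and 372.4 TPM in the same order.

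**Figure D3:**
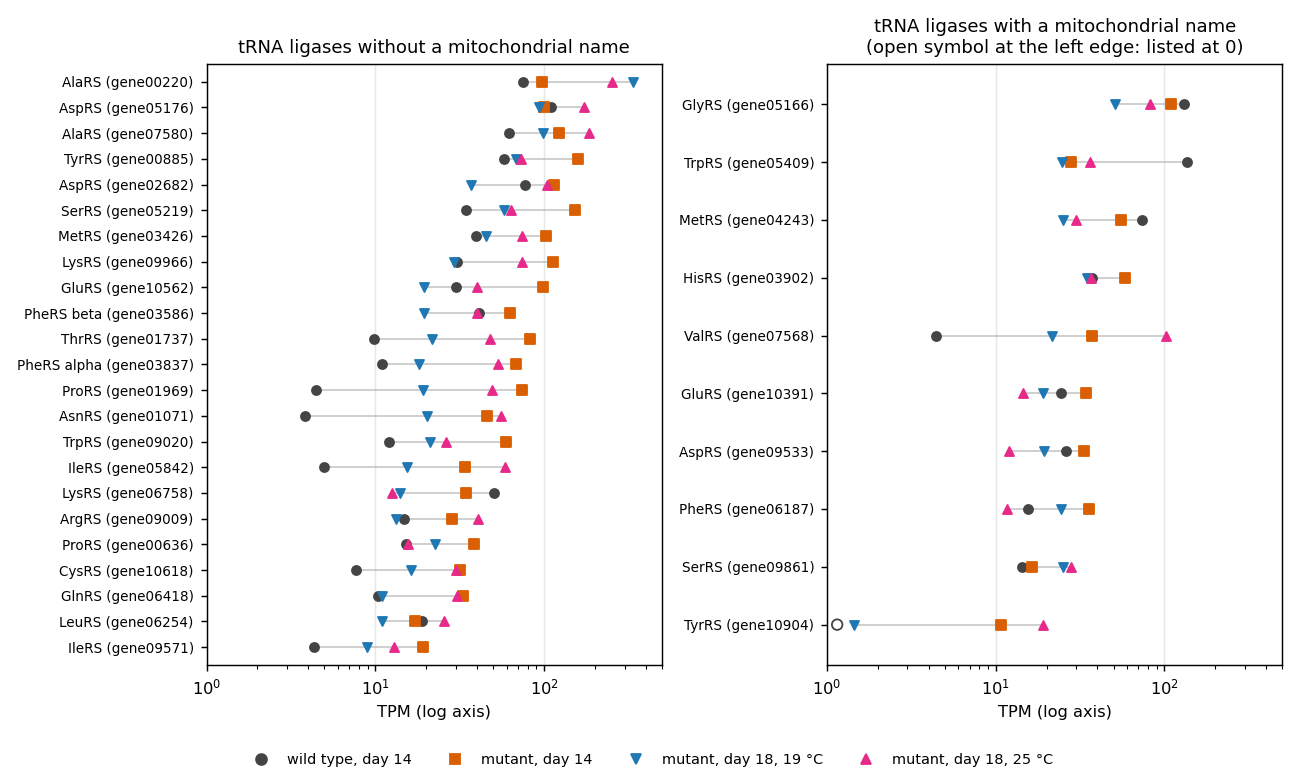
TPM of the 33 tRNA ligases in each of the 4 libraries, on a log axis, ordered by mean level. Symbols stand for libraries, with 1 library per group, and the grey line joins the lowest and highest. On the left the wild type is mostly leftmost, down to 3.85 TPM for AsnRS; on the right the order of the libraries varies from gene to gene.

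Among ligases above 0 in every library, the largest strain ratio was that of a proline ligase (gene01969), whose hit YHR020W is the cytosolic enzyme of budding yeast. It stood at 4.44 TPM in the wild type, 73.5 in the mutant at day 14, 19.2 at day 18 and 19 °C, and 49.2 at day 18 and 25 °C. Asparagine ligase (gene01071) followed, at 3.85 TPM in the wild type, 46.0 in the mutant at day 14, 20.2 at day 18 and 19 °C, and 55.8 at day 18 and 25 °C. Threonine ligase (gene01737) stood at 9.83 TPM in the wild type, 82.1 in the mutant at day 14, 21.7 at day 18 and 19 °C, and 47.5 at day 18 and 25 °C. For these 3 genes the wild-type library was the lowest and the 19 °C library the next, and the fold between mutant and wild type at day 14 was 16.6, 11.9 and 8.35.

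The branched-chain amino acids were not alike. The cytoplasmic isoleucine ligase (gene05842) stood at 4.96 TPM in the wild type, 33.9 in the mutant at day 14, 15.5 at day 18 and 19 °C, and 58.5 at day 18 and 25 °C, which is 6.83-fold higher in the mutant at day 14 and 3.77-fold higher at 25 °C than at 19 °C. Valine ligase (gene07568) showed the widest span of the ligases above 0 in every library, at 4.45 TPM in the wild type, 37.3 in the mutant at day 14, 21.7 at day 18 and 19 °C, and 102 at day 18 and 25 °C. Leucine ligase (gene06254) stood at 18.9 TPM in the wild type, 17.2 in the mutant at day 14, 10.9 at day 18 and 19 °C, and 25.6 at day 18 and 25 °C, so the strains were within 2-fold and the 25 °C library was 2.35-fold above the 19 °C library. A second isoleucine ligase (gene09571), whose best hit is a cyanobacterial protein, was lower than the cytoplasmic one in every library, at 4.34, 19.1, 8.95 and 12.9 TPM in the same order.

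Aromatic amino acids had several genes each. Phenylalanine ligase is built from alpha and beta chains; the alpha chain gene (gene03837) stood at 10.9 TPM in the wild type, 68.1 in the mutant at day 14, 18.1 at day 18 and 19 °C, and 53.4 at day 18 and 25 °C. The beta chain gene (gene03586) stood at 41.1 TPM in the wild type, 62.8 in the mutant at day 14, 19.5 at day 18 and 19 °C, and 40.0 at day 18 and 25 °C. Thus the alpha chain was 6.24-fold higher in the mutant at day 14 and the beta chain 1.53-fold, although the protein needs both; at 19 °C both were lower than at 25 °C, by 2.95-fold and 2.05-fold. Tryptophan ligase (gene09020) stood at 12.0 TPM in the wild type, 59.9 in the mutant at day 14, 21.2 at day 18 and 19 °C, and 26.4 at day 18 and 25 °C. Tyrosine ligase (gene00885) stood at 58.0 TPM in the wild type, 159 in the mutant at day 14, 68.4 at day 18 and 19 °C, and 73.0 at day 18 and 25 °C. Both were highest in the mutant at day 14 and were within 2-fold between the temperatures, with log2 ratios of -0.30 and -0.09. After rescaling by the median ratio the strain call of tyrosine ligase was lost.

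Serine ligase (gene05219) showed the same order of libraries, at 34.4 TPM in the wild type, 153 in the mutant at day 14, 58.2 at day 18 and 19 °C, and 63.8 at day 18 and 25 °C. Methionine ligase (gene03426), which also charges the initiator tRNA, stood at 39.7 TPM in the wild type, 103 in the mutant at day 14, 45.1 at day 18 and 19 °C, and 74.3 at day 18 and 25 °C. Glutamate ligase (gene10562) stood at 30.0 TPM in the wild type, 98.6 in the mutant at day 14, 19.4 at day 18 and 19 °C, and 40.1 at day 18 and 25 °C, and its level in the mutant at day 14 was 5.08-fold that at day 18 and 19 °C. Its wild-type value lay between those of the day 18 libraries. Glutamine ligase (gene06418) stood at 10.4 TPM in the wild type, 33.3 in the mutant at day 14, 10.9 at day 18 and 19 °C, and 30.5 at day 18 and 25 °C. Cysteine ligase (gene10618) stood at 7.65 TPM in the wild type, 31.7 in the mutant at day 14, 16.2 at day 18 and 19 °C, and 30.1 at day 18 and 25 °C. All 5 were called higher in the mutant at day 14, but the calls of the methionine, glutamate and glutamine genes were lost after rescaling by the median ratio.

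Some ligases did not pass 2-fold between the strains. Arginine ligase (gene09009) stood at 14.8 TPM in the wild type, 28.5 in the mutant at day 14, 13.3 at day 18 and 19 °C, and 40.8 at day 18 and 25 °C, and the 25 °C library was 3.06-fold above the 19 °C library. An alanine ligase with a fungal hit (gene07580) stood at 62.2 TPM in the wild type, 122 in the mutant at day 14, 99.0 at day 18 and 19 °C, and 185 at day 18 and 25 °C. Another alanine ligase gene (gene00220), whose hit is an archaeal protein, reached the highest level of the 33 ligases, at 75.4 TPM in the wild type, 96.7 in the mutant at day 14, 334 at day 18 and 19 °C, and 254 at day 18 and 25 °C, and was the only one of them called higher at day 18 than at day 14 at both temperatures. Rescaled by the median ratio, the mitochondrial serine ligase (gene09861) was called so as well. Unlike gene07580, the alanine gene gene00220 has no gene symbol, KEGG name or DHHA1 domain listed. Its name rests on the hit and on its tRNA-synt_2c and tRNA_SAD domains.

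Aspartate had 2 genes with a cytoplasmic name and 1 with a mitochondrial name. The gene gene02682 stood at 77.5 TPM in the wild type, 114 in the mutant at day 14, 36.9 at day 18 and 19 °C, and 104 at day 18 and 25 °C. The gene gene05176 stood at 110.1 TPM in the wild type, 99.6 in the mutant at day 14, 93.5 at day 18 and 19 °C, and 172 at day 18 and 25 °C. The latter carries, beside its ligase domains, a domain listed as LPG_synthase_C and the KEGG name ERDS, which belongs to a fungal enzyme known from Aspergillus that uses charged aspartyl-tRNA to attach aspartate to ergosterol. Its strain ratio of -0.14 and temperature ratio of -0.87 on the log2 scale were within 2-fold, while the plain gene was 2.81-fold lower at 19 °C.

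Lysine and proline each had 2 genes with unlike values. The lysine ligase with a hit to cla4 (gene09966), a ligase named after the cladosporin gene cluster of Cladosporium, stood at 30.4 TPM in the wild type, 112 in the mutant at day 14, 29.1 at day 18 and 19 °C, and 73.6 at day 18 and 25 °C. The other (gene06758), with a hit to a rat protein, stood at 50.5 TPM in the wild type, 34.5 in the mutant at day 14, 14.1 at day 18 and 19 °C, and 12.5 at day 18 and 25 °C, highest in the wild type. Their strain log2 ratios were 1.85 and -0.54. The second proline ligase (gene00636) stood at 15.1 TPM in the wild type, 38.7 in the mutant at day 14, 22.6 at day 18 and 19 °C, and 15.6 at day 18 and 25 °C, and its temperature ratio of 0.51 had the opposite sign to the -1.31 of gene01969.

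Of 20 amino acids, 11 had more than 1 ligase gene, and 7 of these had both a gene with a mitochondrial name and one without. The widest strain gap was that of tryptophan, 4.46 on the log2 scale. The mitochondrial tryptophan ligase (gene05409) stood at 136 TPM in the wild type, 28.1 in the mutant at day 14, 24.7 at day 18 and 19 °C, and 36.2 at day 18 and 25 °C, 4.85-fold higher in the wild type than in the mutant at day 14, and it was the only one of the 33 ligases called lower in the mutant. The mitochondrial methionine ligase (gene04243) was also highest in the wild type, at 73.7, 55.0, 25.0 and 30.1 TPM in library order (wild type, mutant at day 14, 19 °C, 25 °C), as was the glycine ligase (gene05166), at 131, 110.0, 51.1 and 82.3 TPM. The latter pair and the lysine ligase gene06758 were called lower after rescaling by the median ratio.

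Among the other ligases with a mitochondrial name, the phenylalanine gene (gene06187) stood at 15.5 TPM in the wild type, 35.8 in the mutant at day 14, 24.4 at day 18 and 19 °C, and 11.6 at day 18 and 25 °C and was 2.11-fold higher at 19 °C. Its call between the strains, like that of the proline ligase gene00636, was lost after rescaling by the median ratio. The aspartate gene (gene09533) stood at 26.0, 33.4, 19.2 and 12.0 TPM in library order and the glutamate gene (gene10391) at 24.4, 34.4, 19.0 and 14.4 TPM. All 3 had their lowest value at 25 °C and their highest in the mutant at day 14. The histidine gene (gene03902) stood at 37.2, 58.5, 34.8 and 36.8 TPM, with 3 libraries close together and the mutant at day 14 above them. The serine gene (gene09861) stood at 14.4, 16.3, 25.1 and 27.9 TPM, higher at day 18 than at day 14. The tyrosine gene (gene10904) was listed at 0 in the wild type, and stood at 10.8 TPM in the mutant at day 14, 1.44 TPM at 19 °C and, at 25 °C, 19.1 TPM; in Neurospora crassa this enzyme also helps mitochondrial introns to splice. No Pfam domain is listed for it, and an exact 0 in a table without counts is not read as absence.

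Initiation begins with eIF2, which brings the initiator tRNA, and with eIF2B, which recharges eIF2 with GTP. All 3 eIF2 subunit genes were higher in the mutant at day 14. The alpha subunit (gene06352), whose phosphorylation shuts down general initiation under stress, stood at 17.0 TPM in the wild type, 177 in the mutant at day 14, 124 at day 18 and 19 °C, and 184 at day 18 and 25 °C. The beta subunit (gene07749) stood at 80.5 TPM in the wild type, 199 in the mutant at day 14, 91.9 at day 18 and 19 °C, and 281 at day 18 and 25 °C, and the gamma subunit (gene02299), which binds GTP, at 24.9 TPM in the wild type, 118 in the mutant at day 14, 56.1 at day 18 and 19 °C, and 119 at day 18 and 25 °C. In the wild-type library the alpha gene was lower than the beta gene by a wide margin, and in the mutant at day 14 they were near each other. The 4 eIF2B genes were scarcer, summing to 37.2 TPM for the wild type, 110.5 TPM for the mutant at day 14, and 55.7 and 132.3 TPM for day 18 at 19 °C and 25 °C. Among them delta (gene10416) had the largest strain fold, 10.4, at 2.07, 21.5, 6.66 and 28.5 TPM in library order, and gamma (gene06900) the smallest, 1.61, at 24.6, 39.4, 29.0 and 53.8 TPM. Beta (gene06803) and alpha (gene08133) lay between them, at 4.01-fold and 7.33-fold. All 7 genes of these 2 complexes were lower at 19 °C than at 25 °C, 4 of them at least 2-fold. Rescaled by the median ratio, eIF2 gamma was within 2-fold (log2 ratio -0.88), which leaves 3.

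The scaffold eIF3, which holds the small subunit ready for messenger RNA, had 13 gene models for 12 of its subunits. At day 14 the mutant was at least 2-fold above the wild type for 11 and at least 2-fold below it for 0, the median log2 ratio being 1.99, and between the temperatures 4 were lower at 19 °C, or 2, subunits A and M, once rescaled by the median ratio. Subunit A (gene07608), the largest chain, stood at 5.63 TPM in the wild type, 89.5 in the mutant at day 14, 61.6 at day 18 and 19 °C, and 165 at day 18 and 25 °C, the largest strain fold of the 32 initiation factors at 15.9. Subunit K (gene01522), a small chain absent from budding yeast, stood at 19.1 TPM in the wild type, 237 in the mutant at day 14, 123 at day 18 and 19 °C, and 99.7 at day 18 and 25 °C. Both were lowest in the wild type, but A peaked at 25 °C and K in the mutant at day 14. Subunit C (gene01449) stood at 29.8 TPM in the wild type, 104 in the mutant at day 14, 67.6 at day 18 and 19 °C, and 151 at day 18 and 25 °C, subunit M (gene02508) at 22.7, 149, 65.7 and 161 TPM and subunit J (gene02312) at 52.6, 251, 188 and 387 TPM in library order. Subunits E (gene01888), H (gene00324), I (gene08903) and L (gene08403) were 4.05-fold, 3.98-fold, 4.86-fold and 4.75-fold higher in the mutant at day 14 and within 2-fold between the temperatures.

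Leaving out the second subunit B model, gene07193, listed at 0 at 25 °C, log2 ratios between 19 °C and 25 °C ran from -1.40 for A to 0.30 for K. They were -1.28 for M, -1.15 for C and 0.04 for G (gene04760), so subunits of this complex did not move by the same amount. Subunit G stood at 43.6, 159.8, 142 and 138 TPM in library order. A pair of models matched subunit B. The first (gene04064) stood at 29.3 TPM in the wild type, 73.0 in the mutant at day 14, 73.5 at day 18 and 19 °C, and 112 at day 18 and 25 °C. The second (gene07193), for which no Pfam domain is listed, stood at 86.8, 85.2 and 78.2 TPM in the wild type, the mutant at day 14 and the mutant at 19 °C, and was listed at 0 at 25 °C. Subunit D (gene05175) was within 2-fold between the strains, at 56.0, 106, 80.1 and 132 TPM in library order, and its gene number is next to that of the aspartate ligase gene05176.

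**Figure D4:**
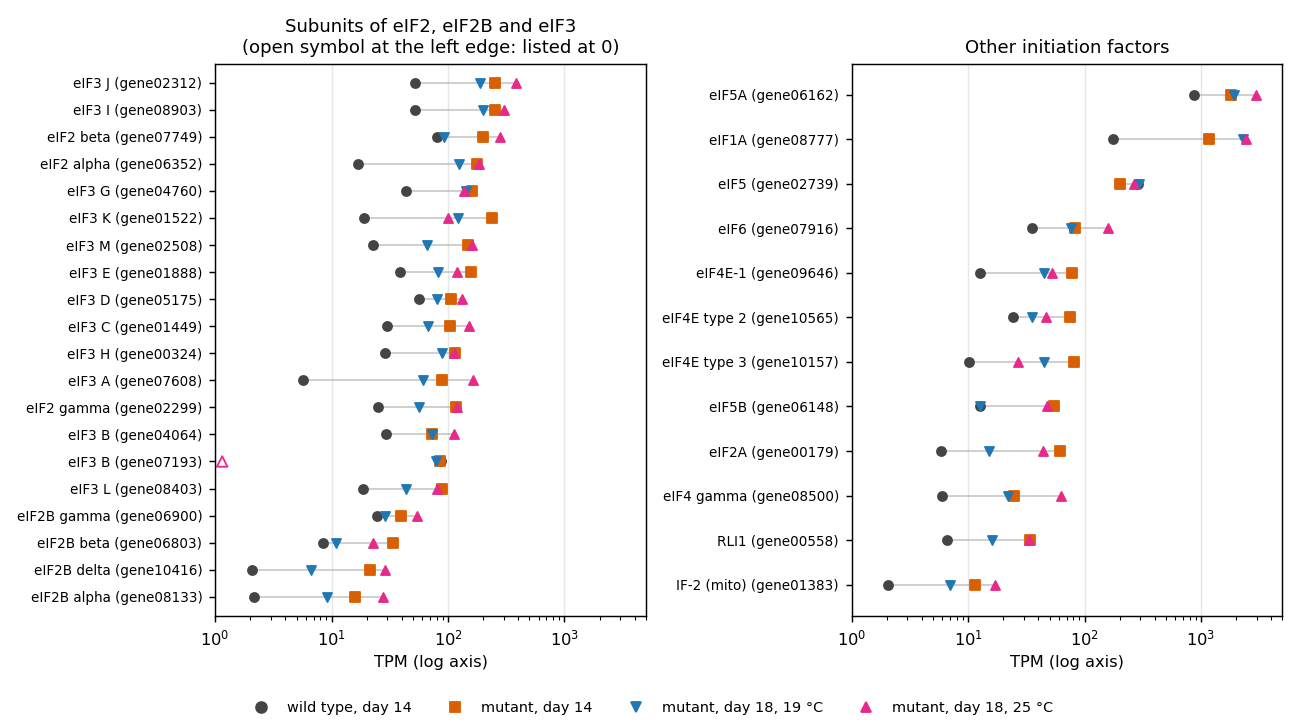
TPM of the 32 initiation factor genes in each of the 4 libraries, on a log axis, ordered by mean level. In nearly every line the wild-type circle is leftmost; eIF5 (gene02739) is an exception, where at day 14 the wild type (288.2 TPM) lies to the right of the mutant (201.4 TPM).

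The cap-binding side had 4 genes, all higher in the mutant at day 14. The scaffold eIF4 gamma (gene08500) stood at 5.94 TPM in the wild type, 24.8 in the mutant at day 14, 22.2 at day 18 and 19 °C, and 62.1 at day 18 and 25 °C. The cap-binding protein eIF4E had 3 models, of which eIF4E-1 (gene09646) stood at 12.5 TPM in the wild type, 78.2 in the mutant at day 14, 44.7 at day 18 and 19 °C, and 52.6 at day 18 and 25 °C. Type 2 (gene10565) stood at 24.0, 74.5, 35.2 and 46.5 TPM and type 3 (gene10157) at 10.2, 80.4, 45.2 and 26.7 TPM in library order. All 3 cap-binding models were highest in the mutant at day 14, while the scaffold was highest at 25 °C.

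The most abundant initiation factors were eIF5A and eIF1A. The first (gene06162), which helps the ribosome past difficult peptide bonds, stood at 872 TPM in the wild type, 1801 in the mutant at day 14, 1929 at day 18 and 19 °C, and 2951 at day 18 and 25 °C. The second (gene08777), which helps find the start codon, stood at 175 TPM in the wild type, 1168 in the mutant at day 14, 2314 at day 18 and 19 °C, and 2452 at day 18 and 25 °C, and was 6.69-fold higher in the mutant at day 14 and 2.10-fold higher again at day 18 and 25 °C. Its temperature ratio of -0.08 was near 0. eIF5 (gene02739), which triggers GTP hydrolysis on eIF2, stood at 288 TPM in the wild type, 201 in the mutant at day 14, 291 at day 18 and 19 °C, and 264 at day 18 and 25 °C and was the initiation factor with the lowest strain ratio. After rescaling by the median ratio it was called lower in the mutant, and the strain calls of eIF5A, eIF2 beta, eIF3 subunit B (gene04064) and eIF4E type 2 were lost.

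Later steps also differed. The subunit-joining factor eIF5B (gene06148) stood at 12.7 TPM in the wild type, 55.0 in the mutant at day 14, 12.7 at day 18 and 19 °C, and 47.1 at day 18 and 25 °C, so its 19 °C value was near that of the wild type and 3.71-fold below that at 25 °C. eIF2A (gene00179) stood at 5.83 TPM in the wild type, 61.8 in the mutant at day 14, 15.1 at day 18 and 19 °C, and 43.6 at day 18 and 25 °C. Both were again higher at day 14 than at 19 °C in the mutant. The ribosome-splitting ATPase RLI1 (gene00558), which recycles ribosomes after release, stood at 6.53 TPM in the wild type, 33.9 in the mutant at day 14, 16.0 at day 18 and 19 °C, and 33.4 at day 18 and 25 °C. eIF6 (gene07916), which keeps the subunits apart until they are mature, stood at 35.3 TPM in the wild type, 81.9 in the mutant at day 14, 76.7 at day 18 and 19 °C, and 158 at day 18 and 25 °C. Mitochondrial IF-2 (gene01383) stood at 2.05, 11.4, 7.03 and 17.0 TPM in library order. These 5 genes were called higher in the mutant at day 14 and lower at 19 °C; after rescaling by the median ratio, eIF6 lost both calls and RLI1 and IF-2 the second.

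Elongation factors split. Elongation factor 1-alpha (gene03292), the most abundant member, stood at 5327 TPM in the wild type, 2857 in the mutant at day 14, 2021 at day 18 and 19 °C, and 4928 at day 18 and 25 °C. Elongation factor 2 (gene06319) stood at 599.6 TPM in the wild type, 247 in the mutant at day 14, 131 at day 18 and 19 °C, and 665 at day 18 and 25 °C. Both were higher in the wild type than in the mutant at day 14, by 1.86-fold and 2.43-fold, and both were lowest at 19 °C, 2.44-fold and 5.07-fold below 25 °C. The difference for elongation factor 1-alpha between the strains was within 2-fold as deposited and a call after rescaling by the median ratio.

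Elongation factor 3 (gene06326) stood at 61.0 TPM in the wild type, 172 in the mutant at day 14, 193 at day 18 and 19 °C, and 763 at day 18 and 25 °C, and its level at 25 °C was 4.44-fold that of the mutant at day 14. The nucleotide exchange factor 1-beta (gene00406), which reloads factor 1-alpha with GTP, stood at 327 TPM in the wild type, 810.5 in the mutant at day 14, 1024 at day 18 and 19 °C, and 773 at day 18 and 25 °C. A gene whose Swiss-Prot hit and KEGG name are those of 1-gamma (gene06771) stood at 102 TPM in the wild type, 158 in the mutant at day 14, 135 at day 18 and 19 °C, and 153 at day 18 and 25 °C and was within 2-fold in every comparison. The only Pfam domain listed for it is Ribosomal_S9, that of a ribosomal protein, and its listed symbol is rpsI, so its own annotation goes against the name. The ratio of 1-alpha to its exchange factor thus differed among the libraries, since 1-alpha was highest in the wild type and 1-beta at 19 °C. After rescaling by the median ratio, the strain calls of factors 1-beta and 3 were lost, and so were those of the mitochondrial pair that follows. In mitochondria, elongation factor Tu (gene05555) stood at 68.8 TPM in the wild type, 194 in the mutant at day 14, 113 at day 18 and 19 °C, and 293 at day 18 and 25 °C and elongation factor G (gene06070) at 14.4 TPM in the wild type, 35.5 in the mutant at day 14, 21.0 at day 18 and 19 °C, and 56.8 at day 18 and 25 °C. Their log2 ratios were alike, 1.49 and 1.24 between the strains and -1.37 and -1.39 between the temperatures.

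**Figure D5:**
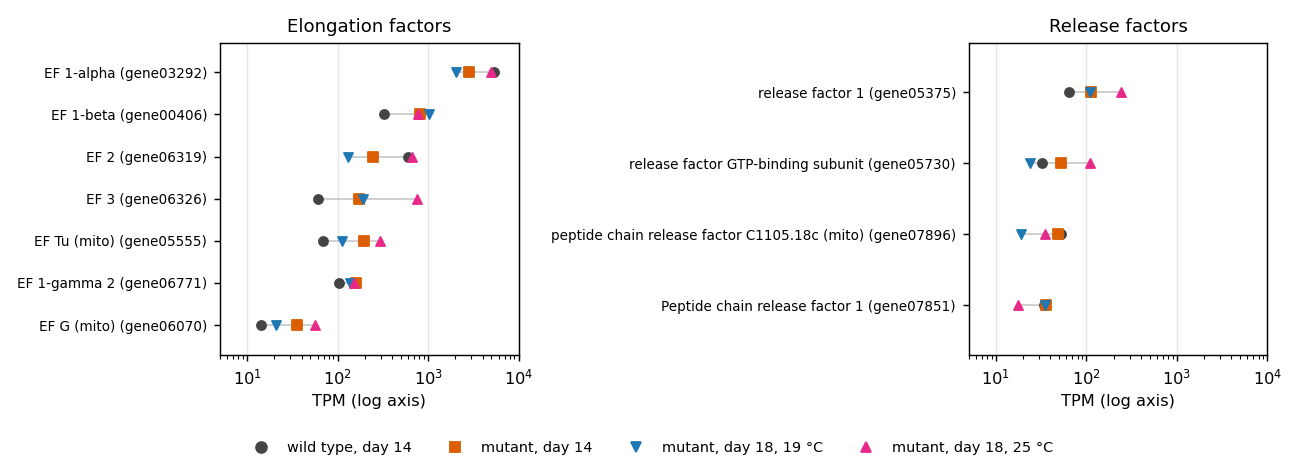
TPM of the 7 elongation factors and 4 release factors in each of the 4 libraries, on a log axis. Factors 1-alpha and 2 have the wild type and 25 °C at the right, whereas the wild type is leftmost for factor 3, at 61.0 TPM.

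Termination showed no 2-fold call between the strains in any of its 4 genes. Release factor 1 (gene05375), which reads the stop codons, stood at 64.0 TPM in the wild type, 111 in the mutant at day 14, 109.9 at day 18 and 19 °C, and 238 at day 18 and 25 °C. Its GTPase partner (gene05730), known as eRF3, stood at 31.9 TPM in the wild type, 52.4 in the mutant at day 14, 24.0 at day 18 and 19 °C, and 111 at day 18 and 25 °C. At 19 °C the partner was 4.61-fold and factor 1 2.16-fold below the 25 °C level. Rescaled by the median ratio, the log2 ratio of factor 1 was -0.92, within 2-fold. A bacterial-type release factor 1 (gene07851), whose KEGG name is that of the mitochondrial factor, stood at 34.3 TPM in the wild type, 35.9 in the mutant at day 14, 35.1 at day 18 and 19 °C, and 17.5 at day 18 and 25 °C, and a mitochondrial release factor-like gene (gene07896) at 52.8 TPM in the wild type, 48.8 in the mutant at day 14, 18.9 at day 18 and 19 °C, and 35.1 at day 18 and 25 °C. The first of these was lowest at 25 °C, against the direction of eRF1 and eRF3, and it was called higher at 19 °C once rescaled.

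Within the mutant, time was followed from day 14 to day 18. At 25 °C, 8 of 76 members were higher at day 18 and 12 lower, against 14.1% and 24.4% of 9236 tested genes, with a median log2 ratio of -0.02 beside -0.30 for all genes. At 19 °C, 1 was higher and 31 lower, against 7.97% and 27.9% of 9119 tested genes, with medians of -0.81 and -0.55. Rescaling by the median ratio moved the median of all genes by 0.34 and 0.51. It gave 18 higher and 5 lower members at 25 °C, and 4 higher and 12 lower at 19 °C, so that higher genes made up 78.3% of the members' calls instead of 40.0%, and 25.0% instead of 3.12%. The calls of all tested genes shifted upward too. After rescaling, 19.8% of them were higher and 15.0% lower at 25 °C, and 15.6% and 10.8% at 19 °C. Both comparisons use the same day 14 library, whose temperature is not given.

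By role, 20 of 33 ligases were lower at day 18 and 19 °C, 17 of them among the 23 without a mitochondrial name, and 9 of 32 initiation factors, the last a share near that of all genes. Rescaled by the median ratio, these counts were 8, 7 and 4, beside 10.8% of all tested genes. At 25 °C, 9 ligases and 3 initiation factors were lower, the first a share near that of all genes and the second below it. Rescaled, 3 and 2 were lower and 6 and 6 higher, beside 15.0% of all tested genes lower and 19.8% higher. As deposited, elongation factors 2 and 3, eRF1, eRF3, eIF4 gamma and eIF1A were among the 8 higher; the other 2 were the valine ligase gene07568 and the alanine ligase gene00220.

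Other genes of translation were counted for comparison. Their counts are read against all tested genes, of which 40.7% were higher and 14% lower in the mutant at day 14, and 10.9% higher and 21.4% lower at 19 °C. Rescaled by the median ratio, these shares were 24.7% and 26%, and 14.5% and 17.5%. Of 70 cytosolic ribosomal protein genes, 13 were higher and 16 lower in the mutant at day 14 (median log2 ratio -0.16), and 1 was higher and 2 lower at 19 °C. Rescaled by the median ratio, 4 were higher and 31 lower in the mutant (median -0.93). Together they took 172255 TPM of the wild-type library and 109571 TPM of the mutant library at day 14. In the same 2 comparisons 64 ribosome biogenesis genes had medians of 0.79 and 0.00, and 50 mitochondrial ribosomal protein genes 0.39 and 0.45. With that rescaling the medians were 0.10 and 0.17, and -0.38 and 0.64, so that the strain median of the mitochondrial ribosomal proteins changed sign. The difference between these lists and the members was not tested.

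Of 10 nascent chain and recycling factors, 8 were higher and 0 lower in the mutant at day 14 (median log2 ratio 1.60), and 1 was lower at 19 °C. Rescaling by the median ratio left 4 higher and 1 lower in the mutant, and 0 lower at 19 °C. The beta subunit of the nascent polypeptide-associated complex (gene04337), which binds new chains at the ribosome, had the largest strain ratio of them, 2.73, at 31.2, 212, 141 and 134 TPM in library order. GUF1 (gene03060), a mitochondrial factor, had the smallest, -0.94, at 66.1, 33.9, 27.1 and 22.4 TPM. In the temperature comparison the extremes were the ribosome-recycling factor (gene09123), at 0.44, and the stalled-ribosome factor dom34 (gene03865), at -1.11.

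Of 24 genes for enzymes that process or modify tRNA, 3 were higher and 3 lower in the mutant at day 14 (median log2 ratio -0.11), and 0 were higher and 5 lower at 19 °C, a share near that of all genes. Rescaling by the median ratio gave 1 higher and 10 lower in the mutant. The thiolation protein 2 gene (gene10424), which acts on wobble bases, stood at 5.72, 119, 101 and 153 TPM in library order, and a ribonuclease P subunit 3 gene (gene07570) at 137, 39.7, 29.8 and 18.7 TPM. Between the temperatures the ribonuclease P subunit p29 gene (gene08065) had the smallest ratio, -2.29, and a threonylcarbamoyladenosine dehydratase gene (gene02796) the largest, 0.88.

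A list of factor-modifying enzymes had 4 of 8 higher and 1 lower in the mutant at day 14. Once rescaled by the median ratio, 0 were higher and 1 lower. The list also holds methionine aminopeptidase genes, which are not specific to these factors. Of them, gene03701 and gene07403 were higher, at log2 ratios of 1.61 and 1.18, and gene06816 was the lower one, at -2.10. Deoxyhypusine hydroxylase (gene08410), which finishes the modified residue of eIF5A, stood at 45.7, 157, 126 and 81.3 TPM in library order, whereas a methionine aminopeptidase 2-1 gene (gene06816) stood at 961, 224, 289.9 and 284 TPM. Between the temperatures the extremes were diphthine methyl ester synthase (gene00929), which works on elongation factor 2, at a log2 ratio of 0.83, and another methionine aminopeptidase 2-1 gene (gene03701), at -1.16. Of 4 accessory and editing genes, 1 was higher in the mutant and 0 lower, or 1 and 3 once rescaled; the higher one was peptidyl-tRNA hydrolase 2 (gene03979), at 9.20, 47.6, 51.4 and 33.3 TPM, and the lowest strain ratio was -0.97 for a D-aminoacyl-tRNA deacylase (gene03064). Peptidyl-tRNA hydrolase (gene05460) was 3.51-fold lower at 19 °C.

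For general amino acid control, the pathway that raises amino acid synthesis and tRNA ligase genes when charged tRNA runs short, 4 genes were listed by name. Its transcription activator, cross-pathway control protein A (gene00597), the counterpart of yeast Gcn4, stood at 427 TPM in the wild type, 2059.8 in the mutant at day 14, 1775 at day 18 and 19 °C, and 2335 at day 18 and 25 °C. The sensor kinase GCN2 (gene05194) stood at 13.3 TPM in the wild type, 11.4 in the mutant at day 14, 9.51 at day 18 and 19 °C, and 10.1 at day 18 and 25 °C, and its activator gcn1 (gene00820) at 36.8 TPM in the wild type, 17.4 in the mutant at day 14, 9.18 at day 18 and 19 °C, and 23.4 at day 18 and 25 °C. An eIF2-alpha kinase 1 gene (gene02000) stood at 8.19 TPM in the wild type, 39.9 in the mutant at day 14, 13.4 at day 18 and 19 °C, and 31.2 at day 18 and 25 °C. It is a separate kinase from GCN2, listed here by its name alone, and its part in this pathway was not tested. The activator gene and kinase 1 were therefore 4.82-fold and 4.87-fold higher in the mutant at day 14, GCN2 was within 2-fold in both comparisons, and gcn1 was 2.12-fold higher in the wild type.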

How the data were processed

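The deposited table, made by the authors, holds TPM values for 10951 genes in 4 libraries, rounded to 2 decimals. Per the labels' protocols, a SMARTER mRNA-Seq kit was used on total RNA. For the aligner, counting tool, genome build, annotation and strand setting, the answer is not given in the sources used here. Columns were matched to samples by library name and groups taken from sample titles, with 1 library each. Gene names are those of best Swiss-Prot hits. Log2 ratios used a pseudocount of 1 TPM, a minimum of 1 TPM in either library and a 2-fold threshold, computed with Python 3.11.15, pandas 2.3.3 and numpy 2.4.6. No count model and no test were run, and no sequences were used. Members and lists were chosen with earlier results of these data known, and the lists of short proteins and of recycling factors were trimmed of wrong hits after the values were seen. Named genes are all members of the cytosolic ligases, elongation and release factors, the extremes of each role or list by level or ratio at 10 TPM or more, and genes that share a name; the other named members were added after values were seen. Alternatives were a pseudocount of 0.1 or 5, a minimum of 10 TPM or none, rescaling by the median ratio or without the 20 highest genes, a threshold of 4-fold, members without mitochondrial names, and members by wider names. Only the 2-fold call was tried on simulated data, with changes of 4-fold or more set into genes at 10 TPM or more. That trial does not cover low genes, the counts of members or the spread between real libraries.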

Additional observations from a re-analysis of the deposited data

Results flagged for a closer look

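The GTP-binding subunit of the release factor, eRF3 (gene05730), was the only member that was at least 2-fold higher at day 18 than at day 14 at 25 °C and at least 2-fold lower at 19 °C. Its log2 ratios were 1.06 and -1.10, a difference of 2.16. After rescaling by the median ratio they were 1.42 and -0.55, so the second was within 2-fold. This difference was not tested, since each group has 1 library, and it equals the temperature comparison because both ratios share the day 14 library.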

How the results depend on the processing

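No paired analysis was possible because each group has 1 library, and leaving out a replicate was not possible for the same reason. The counts of members higher in the mutant (50), lower at 19 °C (35), and lower at day 18 at 25 °C (12) and 19 °C (31) stayed within 1.5 times under both other pseudocounts, both filters, rescaling without the 20 highest genes, and both other ways of choosing members. A 4-fold threshold gave 26 higher and 1 lower in the mutant, 1 higher and 4 lower at 19 °C, 1 higher and 1 lower at day 18 and 25 °C, and 0 higher and 3 lower at day 18 and 19 °C. Shares of all tested genes at 4-fold were not computed, so whether these counts differ from them is unknown. Rescaling by the median ratio gave 7 lower in the mutant, 18 higher and 5 lower at day 18 and 25 °C, and 4 higher and 12 lower at day 18 and 19 °C. Shares of all tested genes under this rescaling stand beside these counts in the Results. The 2 members lower in the mutant became 1 without mitochondrial names. The 2 members higher at 19 °C became 1 with a pseudocount of 5, 1 without mitochondrial names, 1 without members listed at 0 (a choice made after seeing the data), and 4 with names from all databases. Of 304 ratios of single members, 71 changed their call under rescaling by the median ratio, 11 under rescaling without the 20 highest genes, 15 with a pseudocount of 5 and 4 with 0.1.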

Other observations

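A search of the Nr and KEGG names found 15 further genes named for this machinery, some of them beside another Swiss-Prot name. In the mutant at day 14, 6 of 14 tested were higher and 1 lower, against 40.7% and 14% of all tested genes. Rescaled by the median ratio, 5 were higher and 2 lower, against 24.7% and 26%. At 19 °C, 2 of 13 were higher and 3 lower, against 10.9% and 21.4%. As deposited, the shares higher in the mutant and lower at 19 °C were near those of all genes. Only some of the 15 are named here. Start-codon factor eIF1 (gene02324, hit sui1) stood at 82.1 TPM in the wild type, 485 in the mutant at day 14, 512 at day 18 and 19 °C, and 545 at day 18 and 25 °C. The messenger RNA helicase eIF4A (gene07522) stood at 265 TPM in the wild type, 415 in the mutant at day 14, 391 at day 18 and 19 °C, and 665 at day 18 and 25 °C, and a gene with the KEGG name of its helper eIF4B (gene10438) at 3.82 TPM in the wild type, 64.3 in the mutant at day 14, 29.0 at day 18 and 19 °C, and 90.0 at day 18 and 25 °C. TMA22 (gene05148), which acts in ribosome recycling, had the largest strain fold of these, 37.3, at 3.85, 144, 87.5 and 65.4 TPM in library order. A gene with the KEGG name of eIF2B epsilon (gene00805) stood at 13.6, 52.4, 38.6 and 137 TPM, although its Swiss-Prot hit is a ubiquitin ligase.

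A valine ligase model without a Swiss-Prot hit (gene05355) stood at 433, 423, 770.1 and 165 TPM in library order, 4.66-fold higher at 19 °C, whereas the valine ligase gene07568 was 4.70-fold lower there. A gene called elongation factor 1 gamma in Nr and a glutathione S-transferase in Swiss-Prot (gene06245) stood at 379.6, 185, 293 and 74.5 TPM, 3.94-fold higher at 19 °C.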
